A study of Mus musculus with 7 samples.

Results

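The genes described here are the 10 snoRNA host genes Snhg15, Gas5, Snhg1, Snhg3, Snhg5, Snhg6, Snhg8, Snhg11, Snhg12 and Snhg20, out of 51826 genes in the deposited count table of a mouse liver RNA-seq study. They were taken by gene name, and all 10 were found. The libraries came from 4 knock-in mice homozygous for the Y118C allele of Sprtn (KI) and from 3 wild-type mice (WT). All 7 animals were untreated C57BL/6J males aged 6 months, and the organ was liver. Sprtn encodes a protease that degrades proteins crosslinked to DNA, and the study asked how its mutation alters expression in the liver. The labels do not say whether KI and WT mice were littermates. The mutation replaces an amino acid, so the count of Sprtn itself is no check of the genotype labels.

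Small nucleolar RNAs (snoRNAs) guide the chemical modification of ribosomal and spliceosomal RNA. Those of the box C/D class direct ribose methylation, and those of the box H/ACA class direct pseudouridylation. In mammals most of them lie in introns and are released when the host transcript is spliced. The non-coding hosts are best known for these introns. Many of their spliced exons begin with a terminal oligopyrimidine tract, like the mRNAs of ribosomal proteins, and are engaged by ribosomes on short reading frames and then removed by nonsense-mediated decay. The steady level of such an RNA therefore depends on both its synthesis and its decay, and counts of exonic reads do not separate the 2.

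The 10 hosts contained 30 annotated snoRNAs and 1 small Cajal body RNA in GENCODE release M21, each inside an intron of at least 1 transcript of its host. Gas5 held 9 snoRNAs, Snhg1 held 8 and Snhg12 held 4, while Snhg3, Snhg5 and Snhg11 held 2 each. Snhg15, Snhg6 and Snhg8 held 1 each, and Snhg20 held the small Cajal body RNA. The snoRNAs below are those of the host with the largest KI to WT ratio, Snhg15, and of 3 hosts whose KI libraries all lay below WT. Sequences are from GENCODE release M21. Capitals mark the ACA box in the H/ACA members and the C box (TGATGA) and D box (CTGA) in the C/D members.
Snora9 (in Snhg15, chr11:6528033-6528165, minus strand): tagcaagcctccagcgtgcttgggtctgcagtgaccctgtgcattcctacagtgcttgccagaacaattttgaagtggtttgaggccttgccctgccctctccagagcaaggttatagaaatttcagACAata
Snord87 (in Snhg6, chr1:9942463-9942549, minus strand): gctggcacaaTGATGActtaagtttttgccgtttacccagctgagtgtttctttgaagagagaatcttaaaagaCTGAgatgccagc
Snord47 (in Gas5, chr1:161038082-161038158, plus strand): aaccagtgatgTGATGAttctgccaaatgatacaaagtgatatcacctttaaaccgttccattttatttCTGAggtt
Snora24 (in Snhg8, chr3:123507937-123508066, minus strand): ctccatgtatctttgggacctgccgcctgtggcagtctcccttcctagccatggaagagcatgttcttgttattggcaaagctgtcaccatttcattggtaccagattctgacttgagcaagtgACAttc
The host and its snoRNAs could not be followed together. RNA was selected on oligo(dT) beads. All 1558 snoRNA and small Cajal body RNA genes in the table, the 31 hosted here among them, had 0 counts in every library. By counting error alone this allows up to 3 counts each per library. Whether reads of such short RNAs could reach these genes depends on the counting, which the labels do not describe. The zeros therefore set no limit on snoRNA levels. All values below are those of the host genes in polyadenylated RNA. In Snhg1 and Snhg8 every base of the span is exonic in some transcript, so reads over a snoRNA there cannot be told from host reads.

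The sequence around the annotated start differed between Snhg15 and several other hosts. Of the 10 genes, 9 (all but Snhg6) matched the RefSeq promoter table of build GRCm38.p6, with 10 start sites, since Gas5 has 2. The following 3 features were searched for on the strand of the gene, after the sequences had been seen. The first was a run of at least 5 pyrimidines that opens with C within 5 bases of the start. The second was a TATA box, spelled TATAAA or TATATA or TTTATA (spellings that can overlap), that begins 40 to 20 bases before it. The third was TGACGTCA, the palindromic element of the CREB and ATF family, anywhere from 250 bases before to 50 after, which reads the same on both strands. Capitals mark these features. The annotated start is the base at position 14 counted from the right end of each line.
Snhg15 (chr11:6528747-6528855, minus strand): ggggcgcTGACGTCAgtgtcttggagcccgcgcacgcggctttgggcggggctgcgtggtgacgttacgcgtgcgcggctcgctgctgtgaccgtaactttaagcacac
Gas5, inner start (chr1:161035071-161035179, plus strand): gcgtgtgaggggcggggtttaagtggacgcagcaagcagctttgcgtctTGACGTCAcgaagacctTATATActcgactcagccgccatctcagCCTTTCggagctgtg
Snhg8 (chr3:123508323-123508376, minus strand): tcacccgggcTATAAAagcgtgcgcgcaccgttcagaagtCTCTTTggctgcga
Snhg12 (chr4:132308638-132308691, plus strand): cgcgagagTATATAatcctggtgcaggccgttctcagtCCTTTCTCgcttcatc
Snhg1 (chr19:8723447-8723500, plus strand): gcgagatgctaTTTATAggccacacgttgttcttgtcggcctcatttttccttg
Snhg5 (chr9:88522884-88522937, minus strand): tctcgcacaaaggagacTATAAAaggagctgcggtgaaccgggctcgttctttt
Snhg11 (chr2:158375673-158375726, plus strand): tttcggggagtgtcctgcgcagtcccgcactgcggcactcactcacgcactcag
The pyrimidine run was found at 4 of the 10 starts, those of Snhg8, Snhg12, Snhg3 and the inner start of Gas5, against 16.1% of 32851 promoters in the table. A TATA box was found at 5 of 10, the starts of Snhg1, Snhg5, Snhg8, Snhg12 and the inner start of Gas5, against 3.21% of promoters. TGACGTCA was found at 2 of 10, Snhg15 and the inner start of Gas5, against 1.79%. Snhg15, Snhg11, Snhg20 and the outer start of Gas5 had neither a pyrimidine run nor a TATA box in these windows. These matches describe letters and not use of a site. The windows are set on RefSeq starts, which differ from the deposited gene starts in several hosts, as in Snhg5 (88522897 against 88522929). A feature missing here may therefore only lie outside its window.

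Total counts ranged from 36928472 to 46755357 per library. Liver identity was clear, with Alb, which encodes albumin, at 30702 to 45468 TPM (the authors' abundance scaled by gene length and library) in KI and 40292 to 48999 TPM in WT. Some libraries stood apart. Principal component 1, with 29.5% of the variance of log2 CPM (counts scaled by effective library size), placed WT replicate 1 at -9.56, among the KI libraries at -26.4 to -7.95, while the other WT libraries lay at 32.5 and 35.98. KI replicate 1 had 46.6 CPM summed over 3 skeletal muscle markers, and the other 6 libraries had 0.0262 to 0.229 CPM. The summed level of 4 Kupffer cell markers was 99.7 to 128 CPM in KI and 146 to 188 CPM in WT, with all 4 markers lower. In whole liver, fewer cells of a type and less RNA per cell cannot be told apart. The part of these differences in the results below was not tested, and values without single libraries are given where they matter.

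By length-scaled level, the hosts spanned a wide range, and their order was close to the same in both genotypes. The order between genes depends on the gene lengths behind the TPM values, which the labels and headers do not state, and Snhg12 and Snhg20 have other coordinates in GENCODE release M21 than in the deposited table. Snhg8 was the highest, at 50.1 ± 6.81 TPM in KI (SD, n = 4) and 66.6 ± 5.36 TPM in WT (SD, n = 3). Gas5 and Snhg6 came next, with 24.2 and 19.8 TPM in KI and 30.4 and 30.8 TPM in WT, and their ranges overlapped in each genotype. Snhg3 followed with 13.8 TPM in KI and 18.2 TPM in WT, then Snhg20 and Snhg12 with 7.55 and 6.02 TPM in KI and 11.5 and 7.22 TPM in WT. In KI, Snhg3 reached into the ranges of Gas5 and Snhg6, and the ranges of Snhg20 and Snhg12 met. Snhg15 changed its place by more than the others, at 4.33 ± 0.426 TPM in KI, where it stood seventh, and 1.82 ± 0.379 TPM in WT, where it stood ninth. In KI its range overlapped those of Snhg1 and Snhg5, at 4.13 and 3.52 TPM, and in WT it lay below both, at 5.41 and 4.05 TPM, and overlapped that of Snhg11. Snhg11 was the lowest in both, at 1.80 ± 0.166 TPM in KI and 1.299 ± 0.560 TPM in WT. The 10 genes summed to 135 ± 13.2 TPM in KI and 177 ± 13.3 TPM in WT. Snhg15 made up 3.24% ± 0.555 of that sum in KI and 1.02% ± 0.197 in WT, while the share of Gas5 was 17.9% ± 0.323 in KI and 17.2% ± 0.885 in WT.

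Between genotypes, Snhg15 was higher in the Sprtn mutant liver and most of the other hosts were lower. Of the 10 genes, 8 had negative log2 differences (KI minus WT) and 2 positive, with a median of -0.33, where all 13989 tested genes had a median of 0.00070 and 49.9% were negative. The genes were chosen with their values in this same contrast known, so their differences are given as a description, with no test, and support nothing beyond themselves. Fitted on all tested genes, edgeR's quasi-likelihood test called 0 of the 10 at an adjusted p under 0.05, where it called 0.0357% of all tested genes (0.0286% higher and 0.00715% lower in KI). Without adjustment, 5 of the 10 had a p under 0.05, against 10.6% of all tested genes. DESeq2 called 2 of them, Snhg15 and Snhg6, where it called 1.59% of genes (1.03% higher and 0.558% lower). The authors' deposited table had 1 of them, Snhg15, at a corrected p under 0.05, where it had 0.633% of genes with a count, that is 0.438% higher and 0.195% lower.

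**Figure D1:**
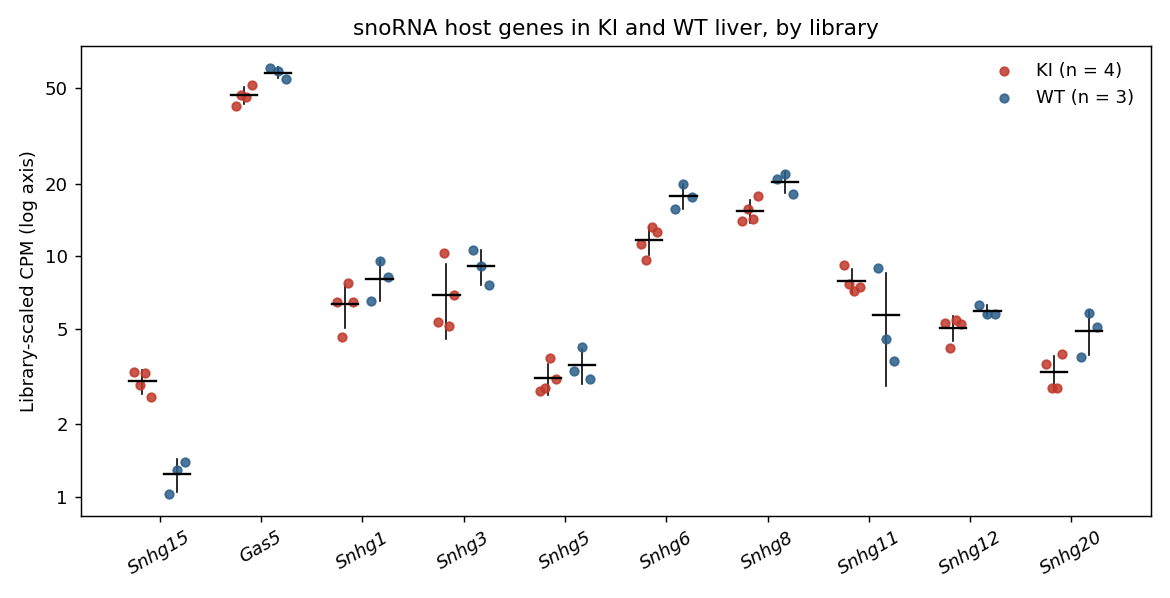
Library-scaled counts (CPM, log axis) of the 10 snoRNA host genes, with a point per library, KI left of WT for each gene, horizontal bars for means and vertical bars for the SD. The KI points of Snhg15, from 2.59 to 3.29 CPM, all lie above WT, and those of Gas5, Snhg6, Snhg8 and Snhg12 all lie below WT.

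Snhg15 (ENSMUSG00000085156, chromosome 11, 6525591 to 6528760, minus strand, mm10) is a non-coding host with up to 4 exons and Snora9 in an intron. It had 149, 111, 129 and 110 counts in the KI libraries, against 43, 52 and 67 counts in the WT libraries. Scaled by library size, these were 3.29, 2.91, 3.27 and 2.59 CPM in KI and 1.02, 1.298 and 1.39 CPM in WT. The lowest KI library stood well above the highest WT library, so the groups did not overlap, as was true in this direction of 5.48% of all tested genes. The mean was 3.01 ± 0.332 CPM in KI and 1.24 ± 0.192 CPM in WT, a ratio of 2.43. The log2 difference was 1.28 ± 0.18 (SE), and it stayed between 1.16 and 1.38 when each library was left out. WT replicate 1, which lay among the KI libraries on principal component 1, had the lowest Snhg15 of all 7 libraries. No exonic base of Snhg15 is shared with another long gene in GENCODE release M21. Beside it, Myo1g, a myosin of blood cells 4625 bases away, had a log2 difference of 0.06 ± 0.20 (SE), and Ccm2, a scaffold protein of endothelial junctions 18126 bases away, had -0.11 ± 0.10 (SE) (edgeR quasi-likelihood adjusted p = 0.940 and 0.698).

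Snhg11 was the only other of the 10 with a higher mean in KI, and the size of its difference depended on which WT library was left out. It is annotated as protein coding in GENCODE release M21, hosts 2 snoRNAs and is best known from neurons. It had 9.22, 7.68, 7.17 and 7.41 CPM in KI and 8.88, 4.52 and 3.66 CPM in WT. WT replicate 1 lay inside the KI range, and the other WT libraries lay below it. The log2 difference was 0.47 ± 0.28 (SE), with 0.95 ± 0.16 (SE) without WT replicate 1 and 0.23 ± 0.25 (SE) without WT replicate 3. Among 5 hepatocyte markers, the pericentral gene Cyp2e1 had 5649 to 6699 CPM in KI and 7219, 3815 and 3560 CPM in WT. WT replicate 1 lay above the KI range there, and the other WT libraries lay below it. Apoa1 also set WT replicate 1 apart, with 6899, 11975 and 11719 CPM in WT. In Alb, Ttr and Cps1, WT replicate 1 did not stand apart from the other WT libraries. A link of these markers to Snhg11 was not tested. Of 3 neuron markers, Snap25 was at 0 TPM in all KI libraries and at most 0.0130 TPM in WT. Rbfox3 had 0.160 to 0.273 TPM in KI and 0.258 to 0.419 TPM in WT. Syt1 had 2.43 to 3.08 TPM in KI and 2.73, 2.04 and 1.85 TPM in WT. As in Snhg11, WT replicate 1 lay inside the KI range of Syt1 and the other WT libraries below it, which was not so in Rbfox3.

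In 4 hosts every KI library lay below every WT library, as was so for 5.46% of all tested genes. The largest of these differences was in Snhg6 (chromosome 1, 9941959 to 9944118, minus strand), the host of Snord87. It had 11.3, 9.62, 13.2 and 12.6 CPM in KI and 15.7, 19.9 and 17.7 CPM in WT. The KI mean was 0.657 of the WT mean, and the log2 difference was -0.61 ± 0.13 (SE), with -0.69 without WT replicate 1 and -0.52 without WT replicate 2. On the opposite strand Mcmdc2 covers 11.1% of the exonic bases of Snhg6. No strand mark is stated, so reads of the 2 strands may not have been told apart. Mcmdc2 had only 0 to 2 counts in KI and 1 to 4 in WT.

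Gas5 (chromosome 1, 161034422 to 161038539, plus strand) was first found as an RNA that accumulates in growth-arrested cells and can bind the glucocorticoid receptor. It was the most heavily counted of the 10, with 1908, 1779, 1807 and 2182 counts in KI and 2535, 2347 and 2618 counts in WT. Scaled, it had 42.1, 46.7, 45.8 and 51.4 CPM in KI and 60.4, 58.6 and 54.4 CPM in WT. KI replicate 4 was the nearest to the WT libraries, and the spread inside each genotype was small, with an SD of 0.12 in KI and 0.08 in WT on the log2 scale. The log2 difference was -0.31 ± 0.09 (SE), and it lay between -0.37 and -0.27 when each library was left out. Gas5 has 25 annotated transcripts, whose exons together cover 3760 of the 4118 bases of the gene, and the gene count does not separate them.

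Snhg8 (chromosome 3, 123507552 to 123508404, minus strand) and Snhg12 (chromosome 4, 132308678 to 132311024, plus strand) host Snora24 and, in Snhg12, a cluster of 3 H/ACA snoRNAs and Snord99. Snhg8 had 13.99, 15.7, 14.3 and 17.7 CPM in KI and 20.9, 21.97 and 18.1 CPM in WT, and its log2 difference was -0.40 ± 0.11 (SE). Snhg12 had 5.296, 4.14, 5.45 and 5.202 CPM in KI and 6.29, 5.74 and 5.76 CPM in WT, and its log2 difference was -0.24 ± 0.13 (SE). The gap between the groups was narrow in both, from KI replicate 4 to WT replicate 3 in Snhg8 and from KI replicate 3 to WT replicate 2 in Snhg12. When each library was left out, the log2 difference of Snhg8 lay between -0.47 and -0.34 and that of Snhg12 between -0.28 and -0.15, the last without KI replicate 2.

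Besides Snhg11, the groups overlapped in 4 hosts. Snhg20, the host of the small Cajal body RNA, had 3.57, 2.83, 2.84 and 3.91 CPM in KI and 3.81, 5.79 and 5.07 CPM in WT. Only WT replicate 1 fell within the KI range, and the log2 difference was -0.57 ± 0.19 (SE), with -0.72 without that library and -0.43 without WT replicate 2. Snhg1, the host of Snord22 and 7 further snoRNAs, had 6.44, 4.62, 7.73 and 6.43 CPM in KI and 6.48, 9.54 and 8.17 CPM in WT, a log2 difference of -0.35 ± 0.19 (SE). Snhg5, the host of the pair Snord50a and Snord50b, had 2.76 to 3.78 CPM in KI and 3.08 to 4.19 CPM in WT, a log2 difference of -0.18 ± 0.17 (SE). In Snhg1, WT replicate 1 lay inside the KI range and KI replicate 3 inside the WT range, and in Snhg5 WT replicates 1 and 3 lay inside the KI range. Without WT replicate 2, the log2 difference was -0.22 in Snhg1 and -0.04 in Snhg5, and the other ends of their ranges were -0.49 (without WT replicate 1) and -0.29 (without KI replicate 3).

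Snhg3, the host of Snora73a and Snora73b, had the widest KI spread of the 10 on the log2 scale, with an SD of 0.46. It had 5.32, 10.3, 5.12 and 6.87 CPM in KI and 10.6, 9.14 and 7.55 CPM in WT. KI replicate 2 lay in the WT range, the other 3 KI libraries lay below all WT libraries, and the log2 difference was -0.40 ± 0.25 (SE), with -0.65 without KI replicate 2 and -0.28 without KI replicate 3 or without WT replicate 1, the ends of the range when each library was left out. The gene overlaps 2 others: 71.5% of its exonic bases are also exonic in Gm17300 on the opposite strand, and 13.7% in Rcc1, the chromatin-bound exchange factor of the Ran GTPase, on the same strand. Gm17300 had 15, 93, 18 and 36 counts in KI and 27, 59 and 32 counts in WT, so that KI replicate 2 was the highest KI library for both genes. Rcc1 had 225, 249, 192 and 264 counts in KI and 244, 174 and 274 counts in WT. The counts of Snhg3 are uncertain because of both overlaps. The library protocol in the labels names no strand mark, and such a mark would not separate Snhg3 from Rcc1.

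**Figure D2:**
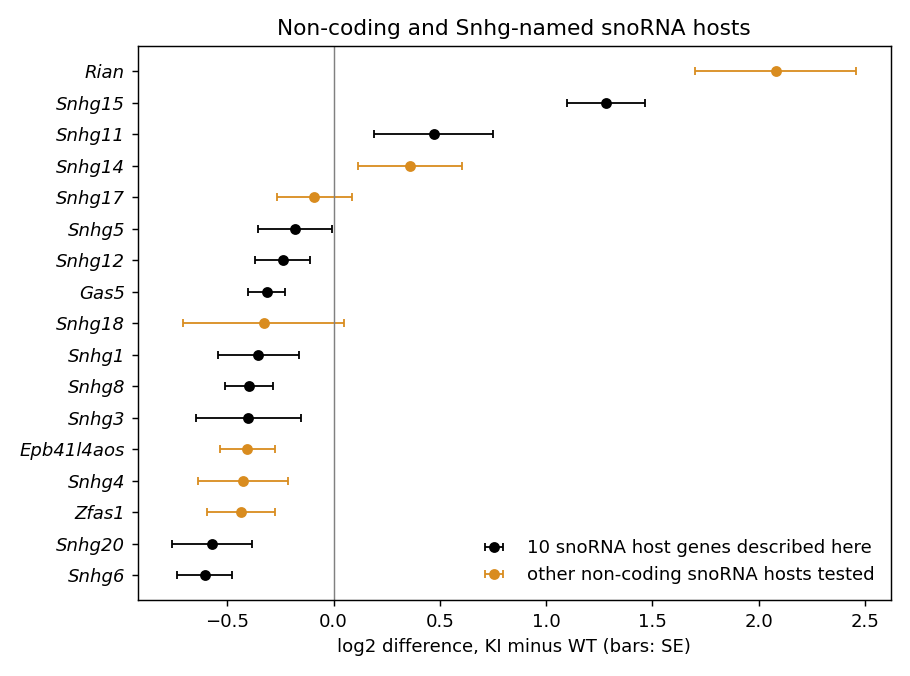
log2 difference (KI minus WT, horizontal axis, bars SE) of the 10 snoRNA host genes in black and of 7 other non-coding snoRNA hosts in orange, ordered by value. Snhg15 at 1.28 stands apart from the 8 members below 0, and Rian is the gene beyond it.

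Other known non-coding snoRNA hosts were looked up by name. Of 12 genes listed, 9 were in the table, and 7 were tested, since Snhg7 and Snhg9 had 0 counts. Of the 7, 5 had negative and 2 positive log2 differences, with a median of -0.33. The edgeR quasi-likelihood test called 0 of them, against 0.0357% of all tested genes. Of the 7, 3 had an unadjusted p under 0.05, against 10.6% of all tested genes. DESeq2 called 1, Rian, where it called 1.59% of genes. Rian also had a corrected p under 0.05 in the authors' deposited table. Epb41l4aos had 6.00, 6.27, 7.20 and 8.05 CPM in KI and 8.95, 9.93 and 8.46 CPM in WT, without overlap, a log2 difference of -0.41 ± 0.13 (SE) (edgeR quasi-likelihood adjusted p = 0.346). Rian, an imprinted host of C/D snoRNAs, went the other way, with 8.52, 5.09, 11.7 and 11.7 CPM in KI and 3.36, 1.35 and 1.85 CPM in WT. Its log2 difference was 2.08 ± 0.38 (SE) (edgeR quasi-likelihood adjusted p = 0.171), and it was called without WT replicate 1, the highest of the WT libraries.

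Protein-coding genes with snoRNAs in their introns had log2 differences near 0, more of them negative than positive. Of 23 such genes, most of them for ribosomal proteins and translation factors, 18 had negative and 5 positive log2 differences, from -0.28 to 0.18 with a median of -0.12. Their summed level was 6223 to 7758 CPM in KI and 6676, 7559 and 8841 CPM in WT, and only WT replicate 3 lay outside the KI range. These sums depend in part on Hspa8, a heat shock chaperone gene. It had 790, 816, 811 and 1313 CPM in KI and 752, 798 and 1599 CPM in WT, highest in the libraries with the highest sums. Genes that vary together are not separate observations. The edgeR quasi-likelihood test and DESeq2 called 0 of them, against 0.0357% and 1.59% of all tested genes. Of the 23, 2 had an unadjusted p under 0.05, against 10.6% of all tested genes. Tcp1, a subunit of the cytosolic chaperonin, had 103 ± 6.43 CPM in KI (SD, n = 4) and 117 ± 4.28 CPM in WT (SD, n = 3), with a log2 difference of -0.19 (edgeR quasi-likelihood adjusted p = 0.455). Eif4a2, a translation initiation helicase, had 211 ± 21.5 CPM in KI and 253 ± 29.8 CPM in WT, with a log2 difference of -0.26 (edgeR quasi-likelihood adjusted p = 0.472).

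The genes of proteins that bind snoRNAs had differences in both directions. Of 8 core proteins of the snoRNA particles, 4 had positive and 4 negative log2 differences, with a median of 0.0076, and of 9 assembly factors 5 were positive and 4 negative, with a median of 0.04. The edgeR quasi-likelihood test and DESeq2 called 0 in either list, against 0.0357% and 1.59% of all tested genes. In each list 1 gene had an unadjusted p under 0.05, against 10.6% of all tested genes. Nhp2, an H/ACA core protein, had 29.7 ± 1.43 CPM in KI and 26.3 ± 1.77 CPM in WT (edgeR quasi-likelihood adjusted p = 0.472), while Dkc1, the pseudouridine synthase of the same particle, had 15.0 ± 1.10 CPM in KI and 16.2 ± 0.857 CPM in WT (edgeR quasi-likelihood adjusted p = 0.675). Dkc1 and Nop56 also stand in the list of protein-coding hosts. Among the assembly factors, Pih1d1, part of the complex that helps build C/D particles, had 30.9 ± 0.823 CPM in KI and 35.1 ± 0.783 CPM in WT without overlap (edgeR quasi-likelihood adjusted p = 0.388), and Nolc1, a nucleolar chaperone of snoRNA particles, had 20.3 ± 5.72 CPM in KI and 17.3 ± 3.01 CPM in WT (edgeR quasi-likelihood adjusted p = 0.729).

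Factors of nonsense-mediated decay, the pathway that removes many host exons, lay close to the middle of all genes. Of 12 decay factors, 5 had positive and 7 negative log2 differences, with a median of -0.02, and of 6 exon junction proteins 1 was positive and 5 were negative, with a median of -0.05. In both lists the edgeR quasi-likelihood test and DESeq2 called 0, against 0.0357% and 1.59% of all tested genes. An unadjusted p under 0.05 was reached by 0 genes in both lists, against 10.6% of all tested genes. The smallest p among the decay factors belonged to Nbas, with 21.8 ± 1.34 CPM in KI and 18.7 ± 2.12 CPM in WT, and then to Smg1, the kinase that phosphorylates Upf1, with 41.8 ± 3.81 CPM in KI and 45.7 ± 1.85 CPM in WT (edgeR quasi-likelihood adjusted p = 0.473 and 0.621). Among the exon junction proteins they belonged to Magohb and Rbm8a, with log2 differences of -0.21 and -0.06 (edgeR quasi-likelihood adjusted p = 0.712 and 0.852). These are transcript levels and do not measure decay.

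**Figure D3:**
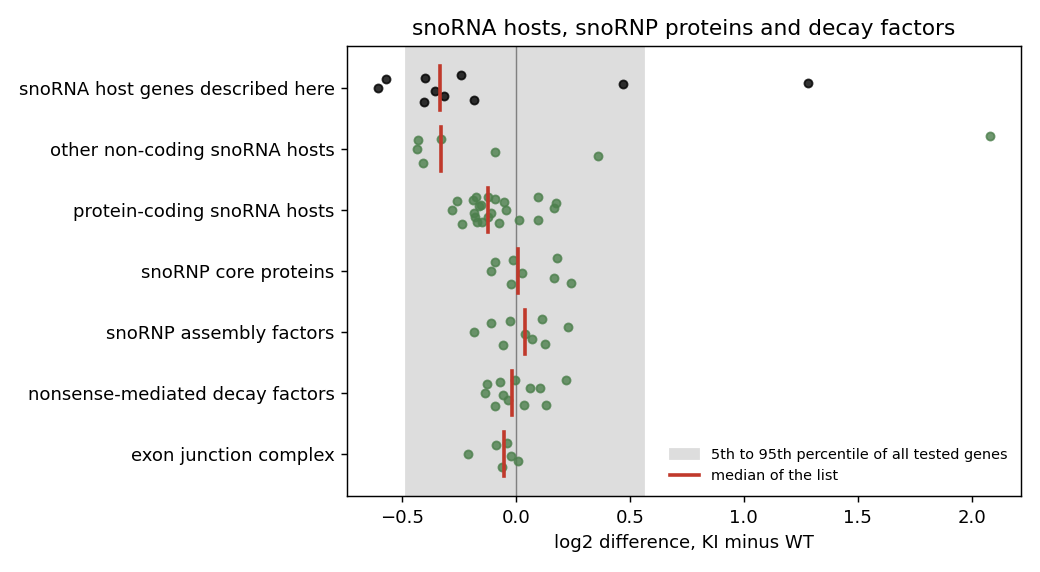
log2 difference (KI minus WT, horizontal axis) of each tested gene in the snoRNA host, snoRNA particle and decay lists, with red bars for list medians and grey for the 5th to 95th percentile of all tested genes, -0.48 to 0.56. Snhg15 at 1.28 and Rian at 2.08 lie beyond the right edge of the grey band, Snhg6 and Snhg20 beyond its left edge, and the medians of the particle and decay lists lie near 0.

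Genes on the opposite strand lie close to several hosts. Slc3a2, the heavy chain of amino acid transporters, starts 105 bases from Snhg1 and had a log2 difference of 0.07 ± 0.08 (SE). Zbtb37, a zinc finger gene whose span overlaps the start of Gas5, had -0.13 ± 0.19 (SE). Trnau1ap, 738 bases from Snhg12, had -0.12 ± 0.09 (SE). The edgeR quasi-likelihood adjusted p of these 3 genes was 0.761, 0.844 and 0.675. Of the 20 nearest tested genes on either side, 10 had positive and 10 negative log2 differences, with a median of -0.01. The edgeR quasi-likelihood test called 0, against 0.0357% of all tested genes. Of the 20, 2 had an unadjusted p under 0.05, against 10.6% of all tested genes. DESeq2 called 1, where it called 1.59% of genes. That gene was Tcf24, a transcription factor gene 16044 bases from Snhg6, with 29, 48, 32 and 34 counts in KI and 30, 606 and 431 counts in WT. Tcf24 also had a corrected p under 0.05 in the authors' deposited table. WT replicate 1 lay with the KI libraries in Tcf24 as well, and in Snhg6 it did not.

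The genes most like Snhg15 were found by the root mean square distance between log2 CPM profiles centred over the 7 libraries, among 11793 other genes with a mean of at least 1 CPM. The nearest was Mtnr1a, a melatonin receptor gene, at a distance of 0.147, with 2.27, 2.12, 2.48 and 1.91 CPM in KI and 0.667, 0.874 and 1.29 CPM in WT. The next were Zmat3, an RNA-binding zinc finger gene, at 0.230, Cx3cr1, the fractalkine receptor, at 0.238, Exoc4, an exocyst subunit, at 0.242, and Entpd2, an ectonucleotidase, at 0.252. Each of the 5 had its lowest KI library above its highest WT library, as Snhg15 did. Mtnr1a shared with Snhg15 the order of the WT libraries, lowest in replicate 1 and highest in replicate 3. Both likenesses follow largely from the choice of these genes by distance over the same 7 libraries, and they are no separate finding. Among the other hosts, Snhg11 was the nearest to Snhg15, at 0.595 and rank 2223, and the remaining 8 lay at 0.745 to 0.951, above the median distance of 0.664. Those 8 are the hosts with negative log2 differences, which by itself sets them far from Snhg15.

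**Figure D4:**
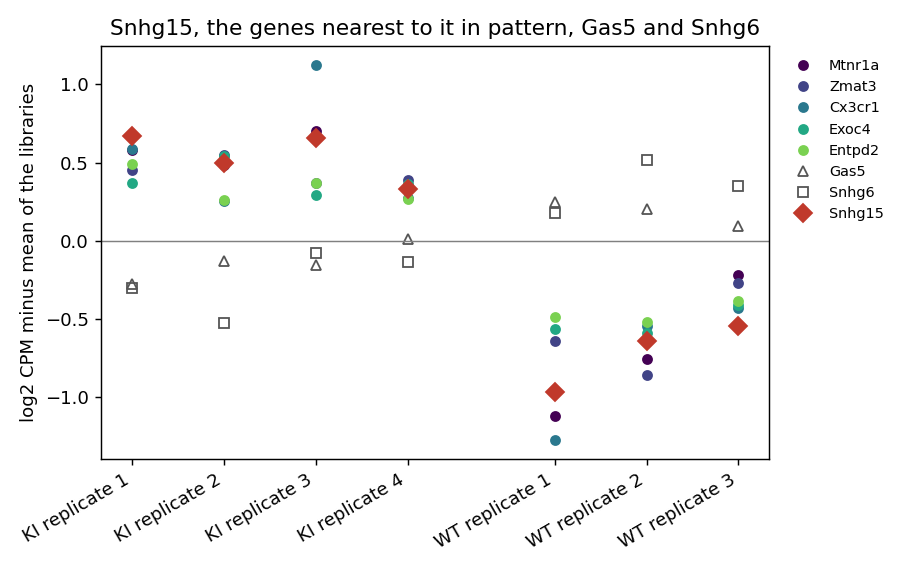
log2 CPM minus the mean of the 7 libraries (vertical axis) in each KI and WT library for Snhg15 (red diamonds), the 5 genes nearest to it in pattern (filled circles), Gas5 (open triangles) and Snhg6 (open squares). Snhg15 and its nearest genes lie above 0 in the 4 KI libraries and below 0 in the 3 WT libraries, and Gas5 and Snhg6 lie on the other side in all libraries but KI replicate 4, where Gas5 is just above 0.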

How the data were processed

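Polyadenylated RNA from 7 livers was sequenced without a stated strand mark, per the labels' protocols. Each library's gene counts were made by the authors and deposited beside TPM values (transcripts scaled by gene length and depth). The submitters' processing notes name mm10. The labels and file headers name no aligner, counter, annotation release or gene lengths. The deposited table also holds the authors' log2 fold changes and corrected p-values, and 14 further per-sample columns were not used. Of the identifiers, 99.6% were in GENCODE release M21, where 2 of the 10 hosts, Snhg12 and Snhg20, have other coordinates than in the deposited table.

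Counts were scaled by TMM, genes with low counts were removed by filterByExpr, and edgeR 4.0.16 (R 4.3.3) fitted its quasi-likelihood model on genotype alone, with Benjamini-Hochberg adjustment over 13989 genes. SE was the size of the log2 difference divided by the root of its F statistic. Levels between genes were compared in TPM only. DESeq2 1.42.0, limma-voom (limma 3.58.1), other scalings and filters, a replicate block and leaving out each library were alternatives. The host genes and all gene lists were chosen with earlier results of these data known. Text names all 10 hosts, called genes of each other list or else the 2 with the smallest unadjusted p, the nearest tested gene on each side of a host, and the 5 genes nearest to Snhg15 in pattern. The values of 1 neighbouring gene are not reported here. The promoter motifs were chosen after the sequences had been seen. Same-numbered KI and WT libraries did not deviate together over all genes (r = -0.06, 0.005 and -0.02). This gave no sign that the numbers pair them, but it cannot exclude a weaker shared factor. Intervals and limits on counts of 0 cover counting error only.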

Additional observations from a re-analysis of the deposited data

How the results depend on the processing

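All 10 snoRNA host genes kept the sign of their log2 difference (KI minus WT) in 14 of 14 alternatives. Snhg15 ranged from 1.27 to 1.35 over 7 other settings and from 1.16 to 1.38 when each library was left out, and among the 14 alternatives DESeq2 alone called it. The same was true of Snhg6, at -0.69 to -0.52 when each library was left out. Snhg11 ranged from 0.23 to 0.95 in that way, with 0.95 reached without WT replicate 1 and 0.23 without WT replicate 3, and the cause was not tested. With a replicate block the log2 difference of Snhg15 was 1.35. The block left 1 gene called of all tested, against 5 without it. Same-numbered libraries did not deviate together, which cannot exclude a weaker pairing.

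The count of all genes called was 222 with DESeq2 and 18 with no filter on low counts, and 3 to 98 when each library was left out, with 98 without WT replicate 1 and 3 without KI replicate 1 or KI replicate 4. The other non-coding hosts had 0 called, 1 (Rian) with DESeq2, and 0 to 1 when each library was left out, with 1 without WT replicate 1. The neighbouring genes had 0 called, 1 (Tcf24) with DESeq2, and 0 to 1 when each library was left out, again with 1 without WT replicate 1. The protein-coding hosts, the snoRNA particle genes and the decay and exon junction genes had 0 called under each alternative. With 43 to 67 counts per WT library, Snhg15 is limited by depth more than Gas5, with 2347 to 2618.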
